A study of Mus musculus with 12 samples.

Results

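The expression of 10 genes of neutral lipid breakdown and lipoprotein uptake was followed in neonatal mouse heart cells, out of 52336 genes in the table. They were the rows whose mouse gene identifiers map to 10 listed symbols: the patatin-like hydrolases Pnpla2, Pnpla7 and Pnpla8, the ester hydrolases and lipases Nceh1, Lipe, Lipa, Lpl and Mgll, the lipase co-activator Abhd5 and the lipoprotein receptor Vldlr. They were chosen by role, with earlier results of these libraries in view, and which measured values entered the choice is not recorded. Among those results, Pnpla7 and Nceh1 had stood apart in normalized read counts between sham-operated pups given N-acetylcysteine and those given saline. That comparison is assumed to have entered the choice and is given for all 10 genes as a description with no test. All 10 genes passed the filter used for testing, a mean normalized read count of at least 10 over the 12 libraries, which 14996 genes passed.

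The study asked how the antioxidant N-acetylcysteine (NAC) alters the transcriptome of neonatal cardiomyocytes with and without heart injury. Wild-type pups received daily injections on postnatal days 0 and 1 of either a high dose of NAC in HEPES-buffered saline (25 mM HEPES, 140 mM NaCl) or a saline control. On day 2 they underwent either LAD-O, blockage of the left anterior descending artery of the heart to produce a myocardial infarction (MI), or a sham operation, and hearts were taken on day 3. Cardiomyocytes were enriched with an isolation kit from digested, pooled ventricles and their polyadenylated RNA was sequenced, giving 12 libraries, 3 for each of 4 groups. The groups are called saline sham and saline MI for pups given saline, and NAC sham and NAC MI for those given NAC. All pups were wild type and received injections and an operation, and the sources used here give neither the NAC dose nor the number of hearts per pool. They do not say whether the libraries of a group came from separate pools, so p-values measure only the spread between these libraries, which may be technical.

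Heart muscle draws much of its energy from fatty acids, which arrive in lipoproteins and are stored as triglyceride and cholesteryl ester in lipid droplets. Lipoprotein lipase (Lpl) splits triglyceride in the capillary, and the VLDL receptor (Vldlr) takes up triglyceride-rich particles. Inside the cell, adipose triglyceride lipase (Pnpla2) with its co-activator Abhd5 removes the first fatty acid of a stored triglyceride, hormone-sensitive lipase (Lipe) the next, and monoglyceride lipase (Mgll) the last. Lysosomal acid lipase (Lipa) and neutral cholesterol ester hydrolase (Nceh1) act on esters in the lysosome and at the endoplasmic reticulum, while Pnpla7 is a lysophospholipase and Pnpla8 a phospholipase of mitochondria and peroxisomes.

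Sequencing depth was 14353842 to 25118341 reads per library. The defining cardiomyocyte markers were present in every library, but NAC sham replicate 2 had the lowest cardiomyocyte marker score, a mean log2 normalized count of 12.90 over 10 genes against 13.45 to 14.63 in the other 11 libraries. Its score over 12 macrophage and monocyte genes was 9.70, against 5.07 to 6.405 in the other sham libraries. NAC MI replicate 2 went the other way, at 5.62 for macrophage genes against 8.68 to 9.40 in the other MI libraries and at 10.90 for 9 endothelial genes, the lowest of all. Its score over 7 neutrophil genes was 5.46, against 7.75 to 8.33 in the other MI libraries and 2.77 to 5.67 in the sham libraries. Of 11 adipocyte genes, adipocytes being another source of these lipases, 3 passed the filter: Fabp4 (2440 to 26254 normalized counts), Cidea (61.3 to 282) and Car3 (21.0 to 109.8). Fabp4 is also a gene of capillary endothelium. Of the other 8, the defining markers Cidec and Lep had no read in any library, Adipoq was at 0 in all but saline sham replicate 3 (4.76), Plin1 did not exceed 6.32, and Cfd, Retn, Ucp1 and Adrb3 did not exceed 18.4. Sample titles carry prefixes whose meaning is not stated. R207 marks saline sham 1 and 2 and NAC sham 2, R219 marks saline sham 3, NAC sham 1 and 3 have none, and the MI libraries carry R230 or R235. No prefix holds both operations, so prefix and surgery cannot be told apart. In these bulk samples, fewer cells of a type and less RNA per cell cannot be told apart either.

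**Figure D1:**
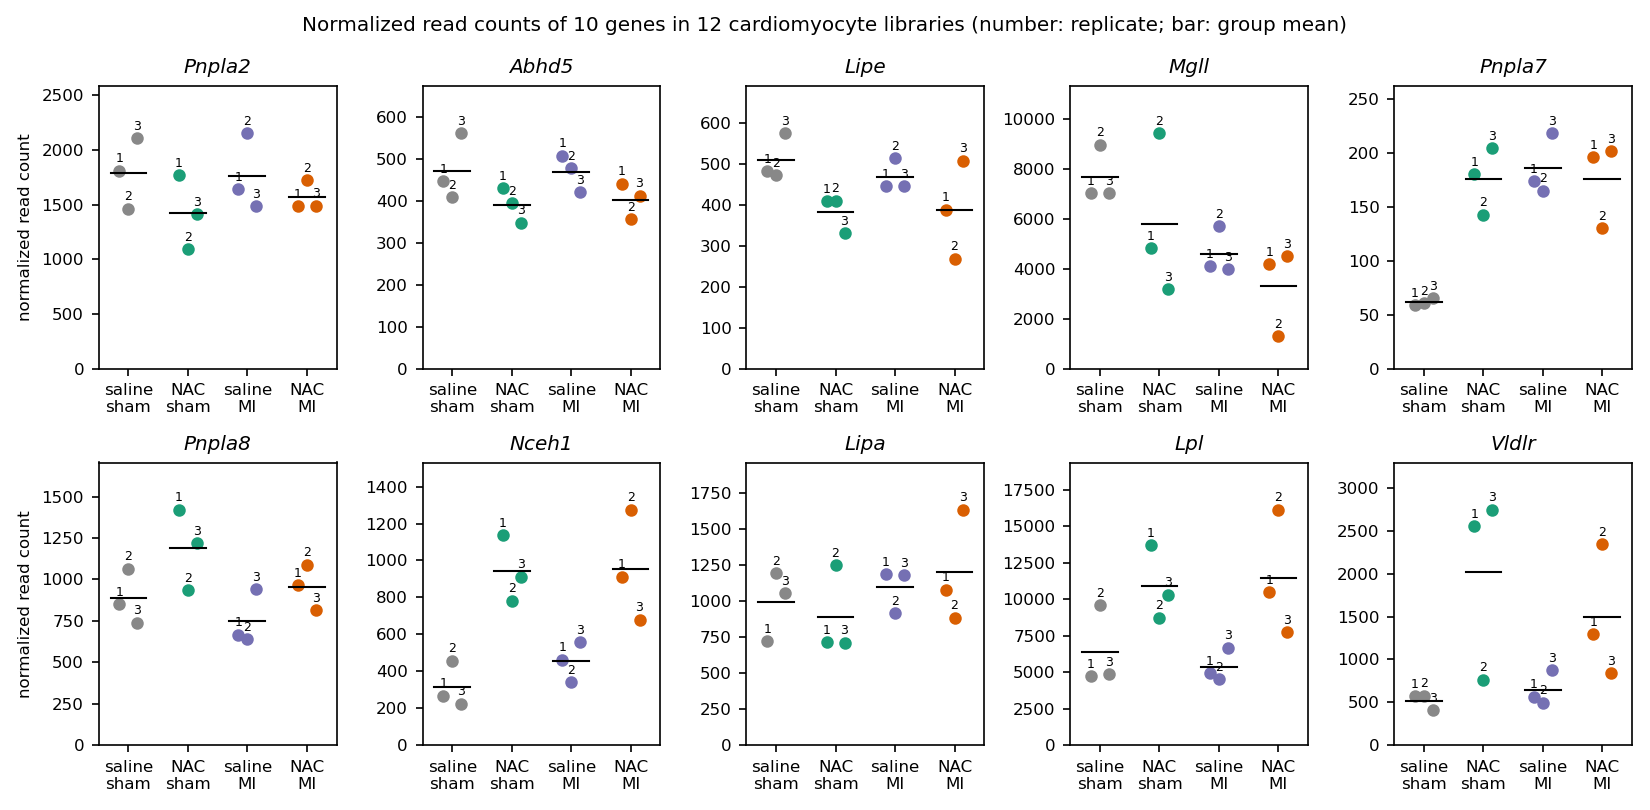
Normalized read count of each of the 10 genes in each of the 12 libraries by group, with numbered points for replicates and bars for group means, each gene on its own linear axis. Pnpla7 sits at or below 65.5 in the 3 saline sham libraries and at or above 130.1 in every other library, and Nceh1 separates NAC from saline libraries in both operations.

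Levels compared between genes were divided by the length of each gene's merged exons. On this scale, as a mean over the 12 libraries, Mgll was the most abundant at 1052 normalized counts per kb, followed by Lpl at 815 and Pnpla2 at 542. Their ranges over libraries overlapped, at 253 to 1856 for Mgll, 432 to 1542 for Lpl and 361 to 714 for Pnpla2. In NAC MI the mean of Lpl (1094) exceeded that of Mgll (653). By this mean Lipa (154), Nceh1 (127) and Vldlr (116) came next, then Lipe at 74.4, Abhd5 at 72.7 and Pnpla8 at 66.7. Pnpla7 was the lowest at 20.0 normalized counts per kb. The ranges over libraries of Nceh1 (42.6 to 243) and Vldlr (40.8 to 273) spanned those of Lipe, Abhd5 and Pnpla8. In saline sham, Nceh1 (60.1) and Vldlr (51.6) had lower means than Lipe (86.7), Abhd5 (79.1) and Pnpla8 (62.4). In NAC sham and NAC MI their means were higher than those of Lipe, Abhd5 and Pnpla8. Abhd5, Pnpla2 and Lipe were the most even: the highest library exceeded the lowest by 1.61 times for Abhd5, 1.98 times for Pnpla2 and 2.14 times for Lipe. Pnpla8 (2.23 times) and Lipa (2.30 times) followed closely. Mgll (7.33 times), Vldlr (6.70 times) and Nceh1 (5.70 times) varied most. Pnpla7 rested on 55 to 229 reads per library, while each of the other genes had at least 188.

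The NAC differences in sham hearts are described without a test because the choice of genes may have drawn on them. 4 of the 10 genes separated the groups without overlap: Pnpla7, Nceh1 and Vldlr were higher after NAC, and Lipe was lower. Over all 14996 genes tested, 5.35% were separated in the higher direction and 4.50% in the lower, and 0% passed the adjusted threshold (limma, 5.89% at an unadjusted p under 0.05, 0 genes called by edgeR and 53 by DESeq2).

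Pnpla7, the lysophospholipase, stood at 58.7, 60.5 and 65.5 normalized counts in saline sham 1 to 3 and at 180.1, 142.8 and 204.0 in NAC sham 1 to 3. Every NAC sham library was above every saline sham library, and the saline sham values lay close together. The difference was 1.48 on the log2 scale (2.80-fold, SE 0.25), and 1.25 with title prefix as an added term, which rests on the R207 libraries alone. Those are NAC sham 2 against saline sham 1 and 2. Pnpla7 lies on chromosome 2 (24976033 to 25054057, plus strand, mm10).

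Nceh1, the cholesteryl ester hydrolase (chromosome 3, 27182965 to 27284608, plus strand), was at 267, 456 and 224 normalized counts in saline sham 1 to 3. In NAC sham 1 to 3 it was at 1137, 782 and 913. The groups did not overlap, and saline sham 2 was the highest of the saline libraries. Its log2 difference was 1.63 (3.09-fold, SE 0.30), or 1.16 with the prefix term.

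Vldlr, the receptor (chromosome 19, 27216484 to 27254231, plus strand), was at 573, 576 and 411 normalized counts in saline sham 1 to 3, and at 2560, 764 and 2750 in NAC sham 1 to 3. NAC sham 1 and 3 were far above the saline range, and NAC sham 2, the library with the macrophage markers, was only just above it. The log2 difference was 1.77 (3.41-fold, SE 0.46). With the prefix term, which leaves NAC sham 2 against saline sham 1 and 2, it was 0.41, and without NAC sham 2 it was 2.37. The size of the Vldlr difference in sham hearts therefore turns on which NAC libraries enter.

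The windows around the start sites of these 3 genes are shown because the genes were the ones higher together after NAC in sham hearts. Each runs from 250 bases before to 50 bases after the start (RefSeq, GRCm38.p6), 5′ to 3′ on the gene's strand. Vldlr has 2 such windows, and the one with motif matches is printed. Capitals mark matches, on either strand, to 6 short motifs: the E-box CACGTG, the nuclear receptor motif AGGTCA, the antioxidant response core TGACNNNGC, the GC box GGGCGG, the CCAAT box and the TATA box TATAAA. Read on the other strand, the nuclear receptor motif is TGACCT and can overlap the antioxidant core.
Pnpla7, chr2:24975783-24976082, plus strand: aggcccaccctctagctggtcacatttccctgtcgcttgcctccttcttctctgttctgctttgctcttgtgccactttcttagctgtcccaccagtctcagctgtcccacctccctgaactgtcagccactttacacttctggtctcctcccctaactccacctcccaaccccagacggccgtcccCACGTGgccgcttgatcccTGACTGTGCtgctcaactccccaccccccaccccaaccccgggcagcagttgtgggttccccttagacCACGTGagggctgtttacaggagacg
Nceh1, chr3:27182754-27183053, plus strand: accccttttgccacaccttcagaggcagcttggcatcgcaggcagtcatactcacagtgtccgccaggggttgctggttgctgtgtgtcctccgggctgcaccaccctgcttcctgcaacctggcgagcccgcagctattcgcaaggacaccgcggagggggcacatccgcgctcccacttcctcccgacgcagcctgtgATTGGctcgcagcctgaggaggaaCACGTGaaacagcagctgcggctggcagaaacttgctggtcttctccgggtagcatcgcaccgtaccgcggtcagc
Vldlr, chr19:27216770-27217069, plus strand: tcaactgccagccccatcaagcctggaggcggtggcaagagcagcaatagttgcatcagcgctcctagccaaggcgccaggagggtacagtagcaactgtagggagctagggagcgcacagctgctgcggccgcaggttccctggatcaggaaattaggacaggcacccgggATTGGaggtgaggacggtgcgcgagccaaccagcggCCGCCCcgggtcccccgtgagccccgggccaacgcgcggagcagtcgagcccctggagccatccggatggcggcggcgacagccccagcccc

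The Pnpla7 window held the E-box at -63 and +24 from the start site and the antioxidant response core at -44. The Nceh1 window held an E-box at -26 and a CCAAT box, read on the other strand, at -50. The printed Vldlr window held a CCAAT box at -78 and a GC box at -42, both on the other strand, and its other window held no match. Windows were found for 9 of the 10 genes, 12 in all, and Lpl had none. The E-box, the motif bound by basic helix-loop-helix factors such as TFEB and MYC, was in 4 of these 12 windows (Pnpla7, Nceh1, and 1 window each of Mgll and Lipe) and in 7.15% of all 32851 windows. The antioxidant core was in 1 of the 12 and in 12.4% of all windows, AGGTCA in 1 and 16.3%, the GC box in 8 and 35.7%, the CCAAT box in 3 and 37.4%, and the TATA box in 1 and 13.6%. The windows of these genes held 59.0% to 72.3% G and C, apart from the unprinted Vldlr window at 43.0%. The median over all windows was 52.7%. The part of G and C content in the shares of the motifs was not tested. Of the genes with an E-box, Mgll and Lipe had log2 differences below 0 after NAC in sham hearts. A match is a description of letters, not of a bound site.

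Lpl (chromosome 8, 68880491 to 68907448, plus strand) was at 4706, 9593 and 4863 normalized counts in saline sham 1 to 3 and at 13711, 8736 and 10327 in NAC sham 1 to 3. The groups overlapped, since saline sham 2 exceeded NAC sham 2, and the log2 difference was 0.83 (SE 0.33), or 0.38 with the prefix term. Lipe, which acts on diglycerides, was at 483, 472 and 576 in saline sham and at 409, 411 and 331 in NAC sham 1 to 3, a log2 difference of -0.41 (SE 0.22). All 3 NAC values of Lipe were below all 3 saline values. An antisense transcript shares 15.6% of the Lipe exon bases and had a mean of 10.04 normalized counts against 438 for Lipe. Another shares 16.0% of the Abhd5 exon bases, with a mean of 0.554 normalized counts. Whether counting used strand is not given in the sources used here.

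The remaining 5 genes overlapped between the sham groups. Their log2 differences were 0.43 for Pnpla8, -0.18 for Lipa, -0.26 for Abhd5, -0.35 for Pnpla2 and -0.54 for Mgll. Mgll was at 7004, 8953 and 7024 normalized counts in saline sham 1 to 3, and at 4805, 9420 and 3179 in NAC sham 1 to 3. NAC sham 2 had the highest Mgll value of all 12 libraries while the other NAC sham libraries were below all saline sham libraries, and with the prefix term the difference was 0.25. Red blood cell RNA differed with NAC too: the summed level of 5 red cell genes was 545900 to 1395420 in saline sham and 188083 to 409943 in NAC sham. Its part in the NAC differences was not tested.

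The comparison of NAC with saline after infarction shared no library with the sham comparison, and it was tested for all 10 genes. That its values played no part in the choice of genes is assumed, not recorded. Nceh1, Lpl and Vldlr were again at higher mean levels after NAC, by 2.07-, 2.06- and 2.18-fold, but none passed the threshold of adjusted p under 0.05 (limma, Benjamini-Hochberg over 14996 genes). The Pnpla7 log2 difference was -0.09. In this comparison limma called 0% of all genes, as did edgeR, while DESeq2 called 11 genes and 9.22% of genes had an unadjusted limma p under 0.05. The smallest adjusted p of any gene was 0.529.

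Nceh1 was at 462, 342 and 558 normalized counts in saline MI 1 to 3 and at 912, 1276 and 679.6 in NAC MI 1 to 3. Every NAC library was above every saline library. The log2 difference was 1.05 (SE 0.30, 95% confidence interval 0.40 to 1.70), with a limma adjusted p = 0.529. Its unadjusted limma p was 0.00385, the rank 72 smallest of all genes.

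Lpl was at 4928, 4530 and 6673 normalized counts in saline MI 1 to 3 and at 10475, 16155 and 7752 in NAC MI 1 to 3, again without overlap. Its log2 difference was 1.05 (SE 0.33, 95% interval 0.34 to 1.75), with a limma adjusted p = 0.529. Both genes were highest in NAC MI 2, the library low in macrophage and endothelial markers. The cardiomyocyte score was highest in NAC sham 1 (14.63), NAC MI 2 (14.59) and NAC sham 3 (14.54), which were also the libraries with the highest Vldlr values. Saline MI 2 came next at 14.33 and had the lowest Lpl value of all libraries. The part of cardiomyocyte content in the NAC differences was not tested. Without NAC MI 2 the log2 differences were 0.82 for Nceh1 and 0.77 for Lpl.

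Vldlr was at 566, 496 and 872 normalized counts in saline MI 1 to 3 and at 1297, 2344 and 842 in NAC MI 1 to 3. The groups overlapped through NAC MI 3 and saline MI 3. The log2 difference was 1.13 (SE 0.46, 95% interval 0.14 to 2.12; limma adjusted p = 0.529), and 0.74 without NAC MI 2.

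Of the 10 genes, 2 (Nceh1 and Lpl) were separated in the higher direction, where 8.84% of all genes were, and none in the lower direction, where 11.5% were. With title prefix as an added term the limma adjusted p was 0.264 for Nceh1, 0.274 for Lpl and 0.264 for Vldlr, with log2 differences of 0.86, 0.84 and 0.83. Within R230, NAC MI 3 exceeded saline MI 1 and 2 for all 3 of these genes, and within R235, NAC MI 1 and 2 exceeded saline MI 3. Weighting libraries by estimated quality was the setting in which the 3 genes passed, with limma adjusted p of 0.0255 for Nceh1, 0.0274 for Lpl and 0.0310 for Vldlr. In that setting 685 of all genes tested passed. All 12 macrophage genes and all 5 red cell genes had log2 differences below 0 between NAC MI and saline MI. So did 8 of 9 endothelial genes, and none passed the threshold. None of the 12 macrophage genes was separated, and the low macrophage score was that of NAC MI 2 (5.62). NAC MI 1 and 3 scored 9.13 and 8.82, within the 8.68 to 9.40 of saline MI. Summed red cell levels were 263744 to 519011 in NAC MI against 875170 to 1377420 in saline MI. The part of these cell types in the NAC differences was not tested.

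For the other 7 genes, the intervals of the NAC difference after infarction spanned 0. On the log2 scale Pnpla8 was at 0.36 (95% interval -0.11 to 0.84), Lipa at 0.09 (-0.52 to 0.71), Abhd5 at -0.22 (-0.62 to 0.18) and Pnpla2 at -0.15 (-0.62 to 0.31). Lipe was at -0.31 (-0.80 to 0.17) and Mgll at -0.65 (-1.62 to 0.32). Pnpla7 was at 173.9, 164.9 and 218 normalized counts in saline MI 1 to 3 and at 196.1, 130.1 and 201 in NAC MI 1 to 3. These 6 values were intermixed, and the interval of the log2 difference ran from -0.63 to 0.44 (limma adjusted p = 0.910).

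**Figure D2:**
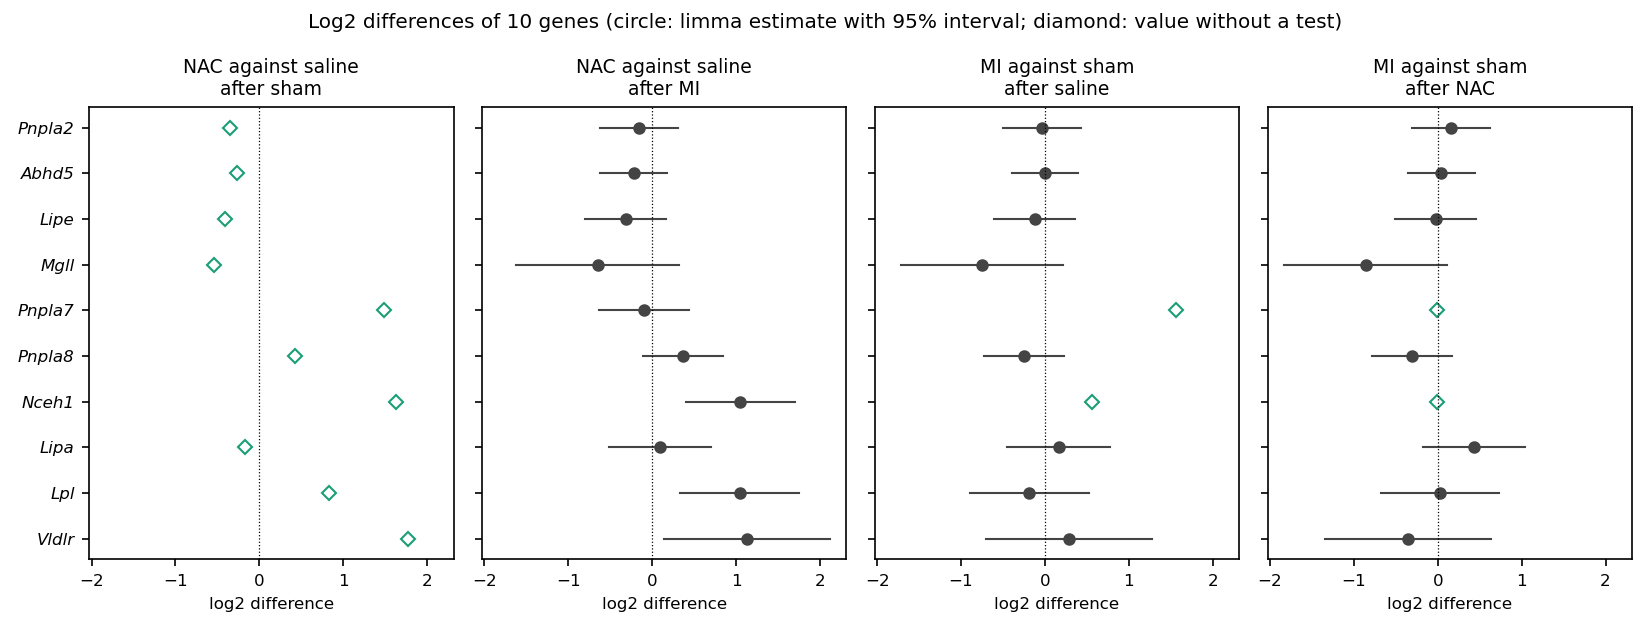
Log2 difference of each gene in the 4 comparisons, points for limma estimates with 95% confidence intervals where a test was made, and diamonds without intervals where the values are a description only. Nceh1, Lpl and Vldlr lie above 0 after NAC in both operations, while Pnpla2, Abhd5 and Lipe have log2 differences between -0.41 and 0.16 in all 4 comparisons.

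Infarction was compared with sham within each treatment. These comparisons share their sham libraries with the one in which Pnpla7 and Nceh1 had stood out, so those 2 genes get values only and the other 8 are tested. The tests of those 8 reuse libraries assumed to have entered the choice of genes, and Vldlr and Lipe were also separated there. They are therefore not independent of the choice, and a pass would be no support. In saline pups 0.860% of all genes passed the limma threshold, 0.854% upward and 0.00667% downward with infarction, and none of the 8 tested genes was among them. In NAC pups 0.127% passed, all upward, and again none of the 8.

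Pnpla7 went from 58.7 to 65.5 normalized counts in saline sham to 164.9 to 218 in saline MI, a log2 difference of 1.57 (2.96-fold) without overlap, as 10.4% of all genes were in the higher direction. After NAC, where 9.08% of all genes were separated in the higher and 9.96% in the lower direction and none of the 10 genes in either, the Pnpla7 sham and MI values were intermixed, with a difference of -0.01. The 3 saline sham libraries were the low ones, and the 9 libraries with NAC, infarction or both were at 130.1 to 218. Nceh1 differed by 0.56 after saline, with overlapping groups, and by -0.01 after NAC.

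Mgll, the monoglyceride lipase (chromosome 6, 88724412 to 88828360, plus strand), was at 4083, 5704 and 3975 normalized counts in saline MI 1 to 3. All 3 were below the lowest saline sham value of 7004. Among all genes 8.15% were separated in the lower direction in this comparison. The log2 difference was -0.75 (SE 0.45, 95% interval -1.72 to 0.22; limma adjusted p = 0.557). After NAC, Mgll was at 4172, 1286 and 4489 in NAC MI 1 to 3, overlapping the sham values, with a difference of -0.86 (-1.83 to 0.11; limma adjusted p = 0.533). That value turned to 0.15 without NAC sham 2 and NAC MI 2, the highest and lowest Mgll libraries.

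The Mgll values varied with the endothelial markers. Of all 11498 genes searched, the 3 whose log2 values were most like those of Mgll over the 12 libraries were Cd300lg (Pearson r = 0.987), the endothelial cadherin Cdh5 (0.984) and Dennd3 (0.980). The endothelial score was 12.48 to 12.66 in saline sham, 11.80 to 12.12 in saline MI, 12.76 in NAC sham 2 and 10.90 in NAC MI 2. Gpihbp1, which holds lipoprotein lipase on capillary endothelium, was likewise high in saline sham and NAC sham 2 and lowest in NAC MI 2, at 2998 to 4417 normalized counts in saline sham, 1628 to 2409 in saline MI, 3342 in NAC sham 2 and 301 in NAC MI 2. All 9 endothelial markers had log2 differences below 0 between saline MI and saline sham, 6 of them without overlap and none past the threshold. These correlations describe libraries that share 4 groups and differ in cell makeup, and the part of endothelial RNA in the Mgll differences was not tested.

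**Figure D3:**
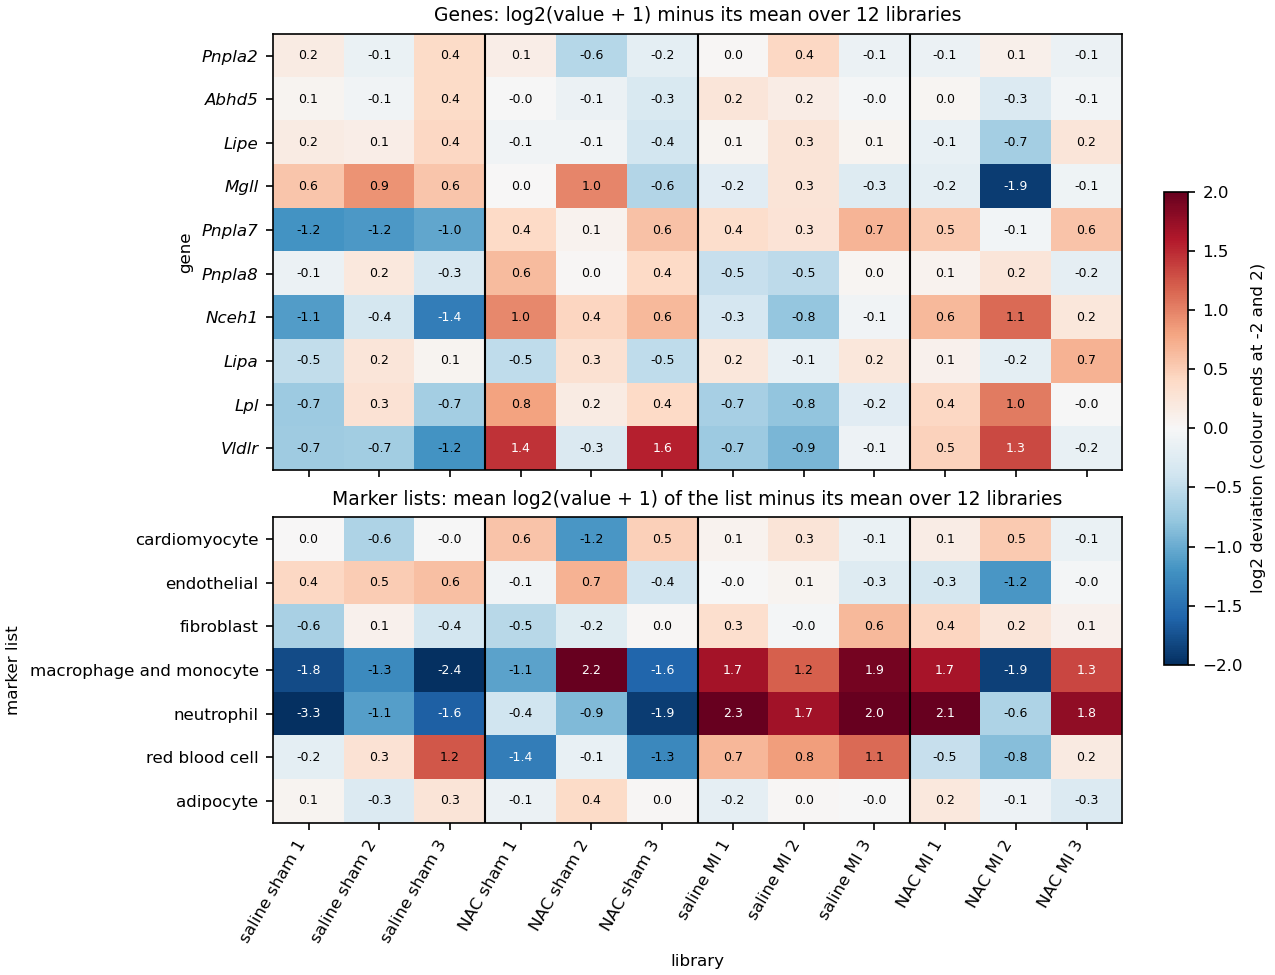
Deviation of each gene's log2 value, and of the mean log2 value of 7 marker lists, from its own mean over the 12 libraries (colour, in log2 units, with the value printed in each cell). Mgll is high where the endothelial score is high (NAC sham 2) and lowest in NAC MI 2, where that score is 10.90, whereas Lpl and Nceh1 are highest in NAC MI 2.

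Vldlr after infarction differed by 0.29 in saline pups (95% interval -0.71 to 1.28; limma adjusted p = 0.852) and by -0.36 in NAC pups (-1.35 to 0.63; adjusted p = 0.787). The NAC value depended on the libraries that stood apart. Without NAC sham 2 and NAC MI 2 it was -1.34, with limma adjusted p = 0.0317, resting on NAC sham 1 and 3 against NAC MI 1 and 3. This setting was chosen after the data were seen. NAC sham 1 and 3 also held the highest Vldlr values in the sham comparison assumed to have entered the choice of genes, so this p-value is no support.

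Lpl differed after infarction by log2 values of -0.19 after saline (95% interval -0.89 to 0.52) and 0.03 after NAC (-0.68 to 0.74). Lipa, the lysosomal lipase (chromosome 19, 34492318 to 34527474, minus strand), ranged from 711 to 1635 normalized counts over the 12 libraries and differed by 0.16 (-0.45 to 0.78) and 0.43 (-0.18 to 1.05). Pnpla8 (chromosome 12, 44221370 to 44322532, plus strand) differed by -0.25 (-0.72 to 0.23) and -0.31 (-0.78 to 0.17). Its lowest libraries were saline MI 1 and 2, and its highest was NAC sham 1.

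The genes of the first steps of triglyceride breakdown had log2 differences near 0 with infarction. Pnpla2 (chromosome 7, 141455198 to 141460743, plus strand) ranged from 1089.5 to 2155 normalized counts and differed by -0.03 after saline (95% interval -0.49 to 0.43) and 0.16 after NAC (-0.30 to 0.63). Abhd5 (chromosome 9, 122351608 to 122381524, plus strand) ranged from 347 to 561 and Lipe (chromosome 7, 25379527 to 25398710, minus strand) from 269 to 576. The intervals for Abhd5 were -0.40 to 0.40 and -0.35 to 0.44, and those for Lipe were -0.60 to 0.36 and -0.51 to 0.46. These intervals bound the change at under 1 log2 unit in either direction. The interaction of NAC with infarction contains the sham comparison described without a test, so no test of it is given for these genes. Over all 14996 genes tested, limma called 0 for the interaction, with 305 at an unadjusted p under 0.05. Whether these genes responded to NAC differently in the 2 operations is therefore left without a conclusion.

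The values most like Vldlr over the 12 libraries were those of the calcium channel gene Cacna1c (r = 0.990), the transferrin receptor Tfrc (0.987) and Phtf2 (0.984). Those most like Nceh1 were Rnf128 (0.960), the glutamine transporter Slc38a1 (0.954) and Oxsm (0.952). These are the highest of 11498 correlations per gene and are given as a description.

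Around the 10 genes, 5 lists of the same pathway held 97 genes, of which 77 passed the filter. After infarction in saline pups, 2 of the 77 rose past the threshold, both in the list of 25 tested lipoprotein-handling genes, and none fell. Sorl1, a sorting receptor of the LDL receptor family, went from 75.0 to 98.2 normalized counts in saline sham to 418 to 572 in saline MI, a log2 difference of 2.48 (SE 0.24, limma adjusted p = 0.000519). Apoe, the apolipoprotein that is a ligand of Vldlr, went from 1504 to 2857 up to 7245 to 12430, a log2 difference of 2.34 (SE 0.40, limma adjusted p = 0.0174). Without saline sham 1, saline sham 2, saline MI 1 or saline MI 3 the adjusted p of Apoe was 0.0903, 0.0733, 0.127 and 0.0991, while Sorl1 passed in every leave-out. Apoe is also made by macrophages, all 12 of whose markers were higher without overlap in saline MI than in saline sham, and NAC sham 2 was the highest sham library for Apoe at 6824. In the same comparison all 6 tested neutrophil markers were higher without overlap, 5 of them past the threshold. All 8 fibroblast markers had log2 differences above 0, 3 of them without overlap. Among all genes 10.4% were separated in the higher direction. The parts of macrophage, neutrophil and fibroblast RNA in the Apoe and Sorl1 differences were not tested.

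After infarction in NAC pups, 1 of the 77 rose and none fell. Olr1, a scavenger receptor for oxidized LDL, went from 5.85 to 21.9 normalized counts in NAC sham to 85.9 to 197.1 in NAC MI, a log2 difference of 3.59 (SE 0.56, limma adjusted p = 0.0215). Without NAC sham 1, NAC sham 3, NAC MI 1 or NAC MI 2 its adjusted p was 0.140, 0.0885, 0.0670 and 0.0676, and it was 0.284 when only the 6 NAC libraries were fitted. Next in this list came Reln, a further ligand of Vldlr, at -1.31 (limma adjusted p = 0.0816) and Sorl1 at 1.07 (0.118).

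No lipid droplet protein passed after infarction in saline pups. G0s2, the inhibitor of Pnpla2, had a log2 difference of 1.33 (limma adjusted p = 0.0802), the droplet coat protein Plin2 1.15 (0.124) and Hilpda, another inhibitor of Pnpla2, 1.25 (0.229). All 3 were separated in the higher direction, where 10.4% of all genes were. Of the 13 droplet genes tested, 10 had log2 differences above 0 after infarction in saline pups, with a median of 0.25 against -0.0075 for all genes, and 6 in NAC pups, with a median of -0.02 against -0.0018 for all genes. In NAC pups the 3 leading genes stood at 0.92 for G0s2 (0.363), 0.59 for Plin2 (0.533) and 0.48 for Hilpda (0.693). The part of macrophage, neutrophil and fibroblast RNA in the droplet gene differences was not tested.

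In the other lists, none of the 13 ester synthesis genes, 11 other hydrolases and 15 lipolysis regulators passed with infarction in either treatment. The leading genes after saline were Soat2 at 3.18 (limma adjusted p = 0.112), Abhd12 at 0.82 (0.112) and Prkar2b at 0.83 (0.342). After NAC they were Soat2 at 1.89 (0.480), Abhd16a at -0.31 (0.499) and Foxo1 at -0.47 (0.520). Soat2, which esterifies cholesterol, did not exceed 6.95 normalized counts in any saline sham library and was at 23.4 to 26.9 in saline MI. No gene of the 5 lists passed between NAC and saline after infarction, where 36 of the 77 had log2 differences above 0, with a median of -0.03 against -0.02 for all genes.

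**Figure D4:**
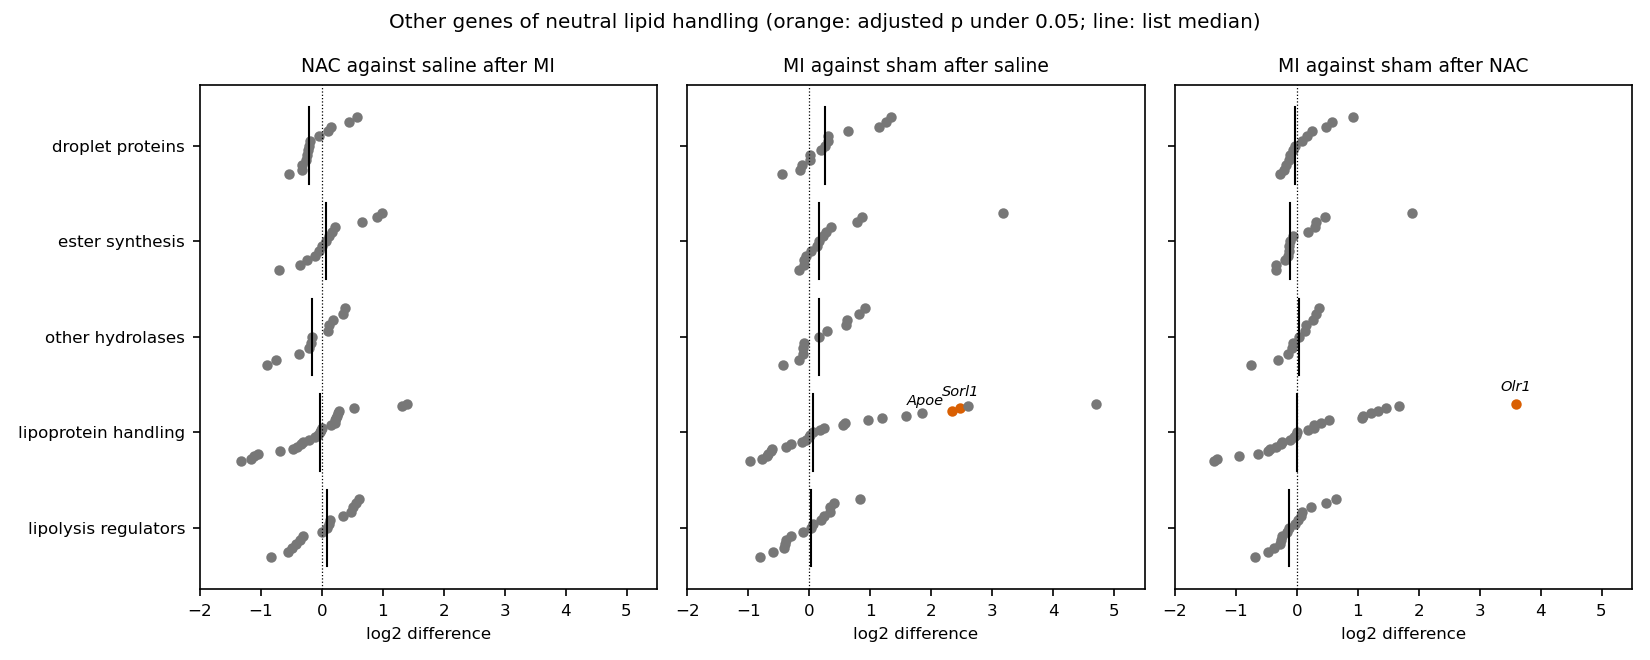
Log2 difference (horizontal axis) of each tested gene of the 5 pathway lists in 3 comparisons, points for genes, orange for those past the adjusted threshold, and vertical lines for list medians. Sorl1 and Apoe pass after infarction in saline pups and Olr1 after infarction in NAC pups.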

How the data were processed

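The authors deposited a table of normalized read counts, a signal per gene and library that holds gene counts divided by 1 size factor per library. Per the submitters' processing notes, STAR 2.7.10a, DESeq2 1.44.0 and the mm10 build were used. The values came out as whole multiples of 1 read, within 0.01, in 100% of cases. Depth was 14353842 to 25118341 recovered reads per library.

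From these values, log2(value + 1) was fitted with limma 3.58.1 (R 4.3.3, trended prior variance, 4 group means, 12 libraries, 8 residual degrees of freedom) for genes with a mean of at least 10. Tests were two-sided, with Benjamini-Hochberg adjustment over all 14996 genes tested and a threshold of 0.05. Fold changes are on the log2(value + 1) scale and understate those of low genes. Alternatives were edgeR 4.0.16 and DESeq2 1.42.0 on recovered reads, TMM scaling, pseudocounts of 0.5 and 5, no filter, library quality weights, the compared libraries alone, title prefix as a term, and leaving out libraries. TMM scaling moved the median of all genes by at most 0.019. The scripts were tested on simulated data.

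The 10 genes and all lists were chosen with earlier results of these data known. Named are all 10 genes, list genes past the threshold, the 3 smallest p-values per list and comparison, and, for the 3 genes of largest SD, the 3 most correlated genes with a mean of at least 50. For brevity not every such list gene is printed. Symbols came from the reference annotation, and all 169 listed symbols were matched. The titles give no replicate numbers, so replicates were numbered in accession order.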

Additional observations from a re-analysis of the deposited data

How the results depend on the processing

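With 3 libraries per group, differences below about the intervals given could not be resolved, and Pnpla7 rested on the fewest reads. No paired analysis was possible because the labels give no replicate numbers, and the title prefixes that some groups share were fitted only as an added term. The number of genes called moved most. The 129 genes called after infarction with saline became 464 with DESeq2, 2915 with quality weights, 507 with the compared libraries alone, 607 without NAC sham 2 and NAC MI 2, and 1807 also without saline sham 3. The 19 called after infarction with NAC became 241, 806, 1, 381 and 575 in the same order, and 43 with a pseudocount of 5. The 0 called between NAC and saline after infarction became 11 with DESeq2 and 685 with quality weights. The 0 called between NAC and saline after sham became 53 with DESeq2, 421 with quality weights, 52 with the prefix term, and 278 and 418 under the pair of leave-outs, which were chosen after the data were seen. Leaving out single libraries gave 15 to 105, 8 to 67, 0 to 4 and 0 to 80 genes for the 4 comparisons in this order. The cause of these moves was not tested.

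Of the genes given a test, 0 were called in any comparison with all libraries or without any single library. Quality weights called 3 between NAC and saline after infarction (Nceh1, Lpl and Vldlr), among 685 of all genes tested. Without NAC sham 2 and NAC MI 2, 1 was called after infarction with NAC (Vldlr), and also without saline sham 3, 1 after infarction with saline (Mgll, -0.81, limma adjusted p = 0.0364) and 1 with NAC (Vldlr, adjusted p = 0.0150). The counts over all genes in these settings are given above. The Vldlr and Mgll calls between infarction and sham use sham libraries of the comparison assumed to have entered the choice of genes, so they are no support. The quality-weight calls between NAC and saline after infarction compare MI libraries only, and none of those 3 genes passed in the limma fit without weights.

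Signs of log2 differences turned as follows. Mgll after infarction with NAC became 0.15 in both of those leave-outs. After infarction with saline, Abhd5 became 0.13 with quality weights, 0.0126 with TMM scaling, 0.0044 with edgeR and 0.13 in the larger leave-out, where Pnpla2 became 0.0934. After infarction with NAC, Lipe became 0.0196 with DESeq2, 0.0390 with edgeR, 0.0521 with quality weights and 0.27 in both leave-outs. Pnpla2 became -0.0328 and Lpl -0.14 with quality weights, and -0.0862 and -0.40 in both leave-outs. With edgeR, DESeq2 and TMM scaling the same comparison gave 0.0048 to 0.0195 for Pnpla7, which was 0.0515 in both leave-outs, and 0.0063 to 0.0362 for Nceh1. Between NAC and saline after infarction, Pnpla7 became 0.0753 with quality weights and 0.11 in both leave-outs, and Lipa -0.0107 with quality weights. Between NAC and saline after sham, the prefix term gave 0.25 for Mgll, 0.43 for Lipa and -0.02 for Pnpla8. Single leave-outs gave, after infarction with NAC, -0.0379 to 0.13 for Abhd5, -0.24 to 0.22 for Lipe, -0.25 to 0.28 for Lpl, -0.0152 to 0.33 for Pnpla2, -0.24 to 0.21 for Nceh1 and -0.15 to 0.19 for Pnpla7. After infarction with saline they gave -0.10 to 0.13 for Abhd5, -0.0491 to 0.32 for Lipa, -0.37 to 0.15 for Lpl and -0.19 to 0.0934 for Pnpla2. Between NAC and saline after infarction they gave -0.15 to 0.29 for Lipa, -0.27 to 0.0027 for Pnpla2 and -0.20 to 0.11 for Pnpla7.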

Other observations

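Some genes of triglyceride synthesis, the step opposite to lipolysis, had log2 differences above 0 after NAC, none past the threshold. Gpam, which starts glycerolipid synthesis, was at 562 to 762 normalized counts in saline sham and 786 to 2110 in NAC sham. It was at 517 to 679 in saline MI and 962 to 1478 in NAC MI, without overlap in either operation. Over all genes, 5.35% were separated in the higher direction after sham and 8.84% after infarction. For Gpam, NAC sham 2 (786) was only just above saline sham 2 (762). The Gpam log2 differences were 1.19 after sham and 0.90 after infarction (limma adjusted p = 0.770 and 0.529). Gpat3, an enzyme of the same step, differed by 1.443 and 0.98 with overlapping groups (limma adjusted p = 0.770 and 0.597). In NAC sham 2 it was at 40.3, within the 31.8 to 75.0 of saline sham. Gpam and Gpat3 were both highest in NAC sham 1, NAC sham 3 and NAC MI 2, the libraries with the highest cardiomyocyte scores. The part of cardiomyocyte content in the differences of these synthesis genes was not tested. In the list of 13 tested ester synthesis genes, 10 had log2 differences above 0 after NAC in sham hearts (median 0.32) and 8 after infarction (median 0.07), where 48.2% and 48.1% of all genes did. The 13 tested droplet genes were mixed, with 7 above 0 after sham (median 0.23) and 4 after infarction (median -0.21). After infarction 3 of them were separated in the lower direction, where 11.5% of all genes were. In the higher direction, where 8.84% of all genes were, 1 was separated, Fitm2.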
